A study of Homo sapiens with 8 samples.

Results

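The genes described here encode the MHC class I molecule and the machinery that loads it with peptide: the heavy chains HLA-B, HLA-C and HLA-E, the light chain B2M, the peptide transporter subunits TAP1 and TAP2, and the loading factors TAPBP, CALR and PDIA3. They were taken by gene symbol, and all 9 were found among the 16082 genes of the deposited count table. They were compared between 4 shHNRNPC libraries, in which the nuclear RNA-binding protein HNRNPC was knocked down by a short hairpin RNA, and 4 control libraries. Both groups were polyadenylated RNA of KYSE150, a cell line from an esophageal cancer, labelled as otherwise untreated. The sources used here do not state the number of hairpins, the control vector or the time after knockdown. The labels do not say whether libraries of a group came from separate cultures, so every p-value measures the spread between these libraries, which may be technical.

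By RefSeq on GRCh38.p14, 6 of the genes lie in the MHC on chromosome 6: HLA-E (chr6:30489509-30494194, plus strand), HLA-C (chr6:31268749-31272092, minus), HLA-B (chr6:31353875-31357179, minus), TAP2 (chr6:32821831-32838739, minus), TAP1 (chr6:32845209-32853704, minus) and TAPBP (chr6:33299694-33314078, minus). PDIA3 (chr15:43746438-43773278, plus) and B2M (chr15:44711517-44718145, plus) lie on chromosome 15, and CALR (chr19:12938609-12944489, plus) on chromosome 19.

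Class I molecules display peptides from inside the cell to CD8 T cells. A heavy chain folds with B2M in the endoplasmic reticulum (ER), while the TAP1-TAP2 transporter pumps cytosolic peptides into the ER. Tapasin, the product of TAPBP, holds the empty molecule next to the transporter together with the lectin chaperone calreticulin (CALR) and the oxidoreductase ERp57 (PDIA3), until a peptide binds well. In many cell types interferons raise many of these genes, with NLRC5, IRF and NF-kB factors acting at some of their promoters. CALR and PDIA3 also serve the folding of most glycoproteins and are induced by unfolded protein in the ER.

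Library totals were 28323403 to 34913500 counts, and the knockdown was present in every library labelled so: HNRNPC stood at 33.9 ± 1.80 CPM, the count scaled to a common library size with TMM factors (SD, n = 4), in shHNRNPC libraries and at 587 ± 12.5 CPM in control libraries. Of 11 squamous epithelial markers 10 reached 1 CPM in at least 1 group, the exception being SOX2, and their summed level was 3109 to 3176 CPM in shHNRNPC libraries and 2087 to 2136 CPM in control libraries. Most of that difference came from KRT5, KRT17 and CDH1, which rose by 0.99, 1.70 and 0.69 on the log2 scale, while TP63, KRT14 and KRT6A fell by 0.45, 0.77 and 1.62. Of 12 leukocyte markers 5 were in the table, and CD68 was alone in reaching 1 CPM. The leukocyte list summed to 103 to 106 CPM in shHNRNPC libraries and 213 to 226 CPM in control libraries, nearly all of it CD68, which was lower after knockdown. CD8A, CD14, ITGAM and FCER1G stayed below 1 CPM in both groups. Fibroblast markers summed to 8.38 to 9.50 CPM in shHNRNPC libraries and 3.65 to 3.88 CPM in control libraries, mostly COL1A1. Endothelial markers summed to 1.24 to 1.84 CPM in shHNRNPC libraries and 2.15 to 2.45 CPM in control libraries. The part of these shifts in the results was not tested, and fewer cells of a kind cannot be told apart from less RNA per cell in bulk libraries. Genes were tested with edgeR's quasi-likelihood method, p-values were adjusted by Benjamini-Hochberg across the 12001 genes with enough reads, and an adjusted p below 0.05 was called.

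The promoters of the genes that rose most are shown beside that of TAP2, which rose little, with each run covering the 250 bases before the annotated start in the 5′ to 3′ direction of the gene. RefSeq sequences of GRCh38.p14 were matched by gene identifier for 7 of the 9 genes, with HLA-E and PDIA3 unmatched. For TAP1 the table holds a further start, whose upstream run (chr6:32852762-32853011) has 1 GC box and no other match; the run of the first start is printed and counted. Capitals mark every match within the run, on either strand, to the 6 patterns described after the sequences.

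B2M (chr15:44711267-44711516, plus strand): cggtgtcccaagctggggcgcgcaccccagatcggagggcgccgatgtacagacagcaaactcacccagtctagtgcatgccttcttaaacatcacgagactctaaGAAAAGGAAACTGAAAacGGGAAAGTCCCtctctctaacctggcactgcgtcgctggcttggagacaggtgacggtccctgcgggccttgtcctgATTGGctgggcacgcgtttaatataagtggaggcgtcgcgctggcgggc
TAP1 (chr6:32853705-32853954, minus strand): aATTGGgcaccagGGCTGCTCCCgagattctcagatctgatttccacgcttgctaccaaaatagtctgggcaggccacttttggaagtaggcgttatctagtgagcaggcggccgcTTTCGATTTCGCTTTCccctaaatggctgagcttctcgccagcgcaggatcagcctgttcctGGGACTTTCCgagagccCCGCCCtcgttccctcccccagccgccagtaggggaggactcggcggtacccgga
TAPBP (chr6:33314079-33314328, minus strand): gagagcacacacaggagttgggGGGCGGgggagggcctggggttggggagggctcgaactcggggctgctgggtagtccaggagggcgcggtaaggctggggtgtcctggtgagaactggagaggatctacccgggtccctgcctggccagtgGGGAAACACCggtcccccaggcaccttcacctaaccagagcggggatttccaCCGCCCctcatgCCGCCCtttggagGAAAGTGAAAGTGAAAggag
TAP2 (chr6:32838740-32838989, minus strand): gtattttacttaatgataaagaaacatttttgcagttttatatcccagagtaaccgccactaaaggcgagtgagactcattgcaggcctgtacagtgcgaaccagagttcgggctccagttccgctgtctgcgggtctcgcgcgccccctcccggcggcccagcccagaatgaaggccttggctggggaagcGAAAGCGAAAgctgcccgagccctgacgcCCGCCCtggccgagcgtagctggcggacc
HLA-C (chr6:31272093-31272342, minus strand): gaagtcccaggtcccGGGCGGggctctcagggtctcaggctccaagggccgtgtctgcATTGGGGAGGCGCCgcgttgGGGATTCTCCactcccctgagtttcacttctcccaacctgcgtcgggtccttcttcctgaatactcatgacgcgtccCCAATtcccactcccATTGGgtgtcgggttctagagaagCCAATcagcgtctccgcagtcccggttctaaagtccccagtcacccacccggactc
HLA-B (chr6:31357180-31357429, minus strand): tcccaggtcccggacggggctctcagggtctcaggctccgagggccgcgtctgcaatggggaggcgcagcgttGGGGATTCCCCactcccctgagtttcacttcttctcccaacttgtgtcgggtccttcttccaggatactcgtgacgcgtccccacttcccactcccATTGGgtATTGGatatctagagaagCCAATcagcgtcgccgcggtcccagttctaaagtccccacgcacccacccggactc
CALR (chr19:12938359-12938608, plus strand): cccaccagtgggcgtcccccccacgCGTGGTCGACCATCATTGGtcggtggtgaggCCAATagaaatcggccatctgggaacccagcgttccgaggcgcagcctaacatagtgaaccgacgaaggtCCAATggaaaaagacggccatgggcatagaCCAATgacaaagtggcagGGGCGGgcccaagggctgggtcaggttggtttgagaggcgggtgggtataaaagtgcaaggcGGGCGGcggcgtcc

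Patterns were searched in the 300 bases from 250 before to 50 after the start, in these genes and in all 35116 promoters of the same length, and 5 of the 6 patterns were found. The core of the interferon-stimulated response element, written as GAAA, any 2 bases and GAAA, was found in 4 of the 7 genes, B2M, TAP1, TAPBP and TAP2, and in 3.57% of all promoters. In B2M, TAP1 and TAPBP it occurred as 2 overlapping copies, which began 144, 134 and 20 bases before the start, and in TAP2 as 1 copy, 58 bases before it. An NF-kB type site, GGGA followed by any 4 bases and CC, was present in all but TAP2 and CALR, and in 25.6% of all promoters; the matches in B2M and HLA-B are overlapping pairs, and in HLA-C 1 match overlaps a CCAAT box. CCAAT, whose reverse complement ATTGG forms the Y box of class I promoters, occurred 4 times in HLA-C and CALR, 3 times in HLA-B, once in B2M and TAP1, and in 34.6% of all promoters. The ER stress element, CCAAT followed by any 9 bases and CCACG, was found in CALR, where its first letters are also counted as a CCAAT box, and in 0.0769% of all promoters. GGGCGG, the GC box, was found in all but B2M and HLA-B, and in 45.0% of all promoters, whereas TGACGTCA, the cAMP response element core, was found in none of the 7 and in 1.85% of all promoters. A match describes letters in these windows and is not a measured binding site.

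All 9 genes were higher in shHNRNPC libraries by the edgeR test, beside 77.3% of all tested genes called in either direction, 38.7% called higher and 38.6% called lower. Of the 9, 5 rose by at least 1 on the log2 scale, namely HLA-B, CALR, TAPBP, B2M and TAP1, while 3.17% of tested genes rose and 5.25% fell by that much. HLA-C and PDIA3 rose by 0.63 and 0.52, TAP2 by 0.16 and HLA-E by 0.051. The median log2 fold change of the 9 was 1.04, beside -0.0057 over all tested genes. The 9 genes and the related lists below were chosen with earlier results of these data known. Comparisons with all tested genes thus describe them and do not test them. None of the 9 overlapped between groups in CPM, with all knockdown libraries on the higher side; 70.8% of tested genes had no overlap, and 35.4% had none with the knockdown higher. Together the 9 genes took 2209 to 2253 CPM in shHNRNPC libraries and 1403 to 1414 CPM in control libraries, a ratio of means of 1.58.

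**Figure D1:**
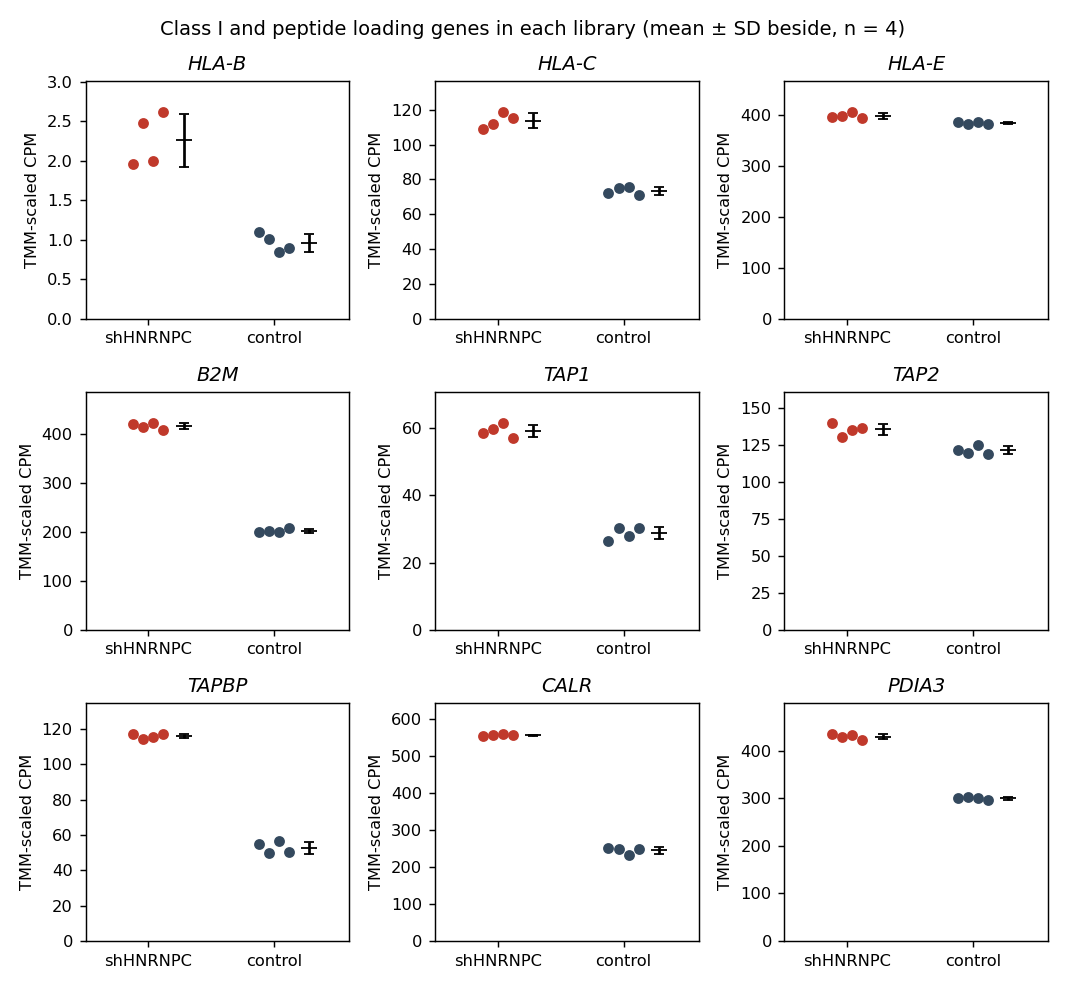
TMM-scaled CPM (vertical axis, from 0) of each of the 9 genes in the 4 shHNRNPC libraries (red) and the 4 control libraries (dark blue), with the mean ± SD beside each group. The red points lie above the blue ones in every panel, by a wide gap for B2M, TAP1, TAPBP and CALR and by a narrow gap for HLA-E and TAP2.

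HLA-E, the nonclassical heavy chain that presents leader peptides to receptors of natural killer cells, was the least changed. Its level was 395, 397, 406 and 394 CPM in shHNRNPC libraries 1 to 4, against 387, 382, 386 and 382 CPM in control libraries 1 to 4. The lowest knockdown library, at 394 CPM, lay just above the highest control library, at 387 CPM. The edgeR log2 fold change was 0.051 (SE 0.019, adjusted p = 0.0140), and 55.3% of tested genes had a lower value. The call was lost with scaling by library size alone (0.030, edgeR adjusted p = 0.143), with upper quartile factors (0.024, edgeR adjusted p = 0.240) and with shHNRNPC replicates 1 and 4 as the knockdown libraries (0.039, edgeR adjusted p = 0.145).

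HLA-C, a classical heavy chain read by both CD8 T cells and killer immunoglobulin-like receptors, rose. It had 109, 112, 119 and 115 CPM in shHNRNPC libraries, against 72.0, 75.0, 75.7 and 71.2 CPM in control libraries. All 4 knockdown libraries stood above all 4 control libraries, and the log2 fold change was 0.63 (SE 0.031, adjusted p = 3.94e-28). HLA-B, the other classical heavy chain of the set, was barely expressed in this line, with 55 to 86 reads in shHNRNPC libraries and 27 to 37 reads in control libraries. It measured 1.95, 2.48, 1.99 and 2.61 CPM in shHNRNPC libraries, against 1.09, 1.01, 0.843 and 0.889 CPM in control libraries. It rose as well (log2 fold change 1.23, SE 0.222, adjusted p = 1.31e-06), with the largest error of the 9 genes. Class I heavy chain genes are paralogs and highly polymorphic. Against reference transcripts, 0% of 100-base windows of HLA-B, 0.275% of HLA-C and 0.600% of HLA-E occur in a transcript of another gene, but the alleles of this line can differ from the reference. The sources used here do not say how reads of those alleles were assigned, so the split between heavy chains, and the low level of HLA-B, are uncertain. Of the exon bases of HLA-B 17.8% overlap AL671883.2 on the opposite strand and 1.147% overlap HLA-C on the same strand, and 1.40% of those of HLA-C overlap HLA-B.

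B2M, the light chain shared by all class I heavy chains, was about 2-fold higher. It had 421, 415, 422 and 408 CPM in shHNRNPC libraries, against 199, 202, 199 and 208 CPM in control libraries. The log2 fold change was 1.04 (SE 0.021, adjusted p = 5.07e-49), larger than that of 97.1% of tested genes. The lowest knockdown library, at 408 CPM, was far above the highest control library, at 208 CPM.

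The balance between heavy and light chain transcripts differed between the groups. The ratio of HLA-E to B2M counts within a library, which needs no scaling between libraries, was 0.940, 0.957, 0.961 and 0.966 in shHNRNPC libraries, against 1.94, 1.89, 1.94 and 1.84 in control libraries. Raw HLA-E counts thus exceeded raw B2M counts in all control libraries and in none of the knockdown libraries. Their order per kilobase depends on the transcript length used, as given below. The difference in log2 ratio was -0.99 (SE 0.021). HLA-C also fell relative to B2M, to a ratio of 0.259 to 0.283 in shHNRNPC libraries, against 0.342 to 0.381 in control libraries (log2 difference -0.41, SE 0.044). The HLA-B to B2M ratio overlapped between groups, at 0.00464 to 0.00641 in shHNRNPC libraries and 0.00424 to 0.00548 in control libraries (log2 difference 0.19, SE 0.148), whereas HLA-B rose relative to HLA-C (log2 difference 0.60, SE 0.143). Over the 7 ratios compared, exact two-sided permutation tests gave p = 0.0286 for all but HLA-B to B2M, the lowest p that 70 possible splits of 8 libraries can give, and p = 0.229 for HLA-B to B2M; after Benjamini-Hochberg adjustment these were 0.0333 and 0.229. Summed over HLA-B, HLA-C and HLA-E, the heavy chains described here held 506 to 527 CPM in shHNRNPC libraries and 454 to 463 CPM in control libraries, a ratio of group means of 1.12, beside 2.06 for B2M.

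**Figure D2:**
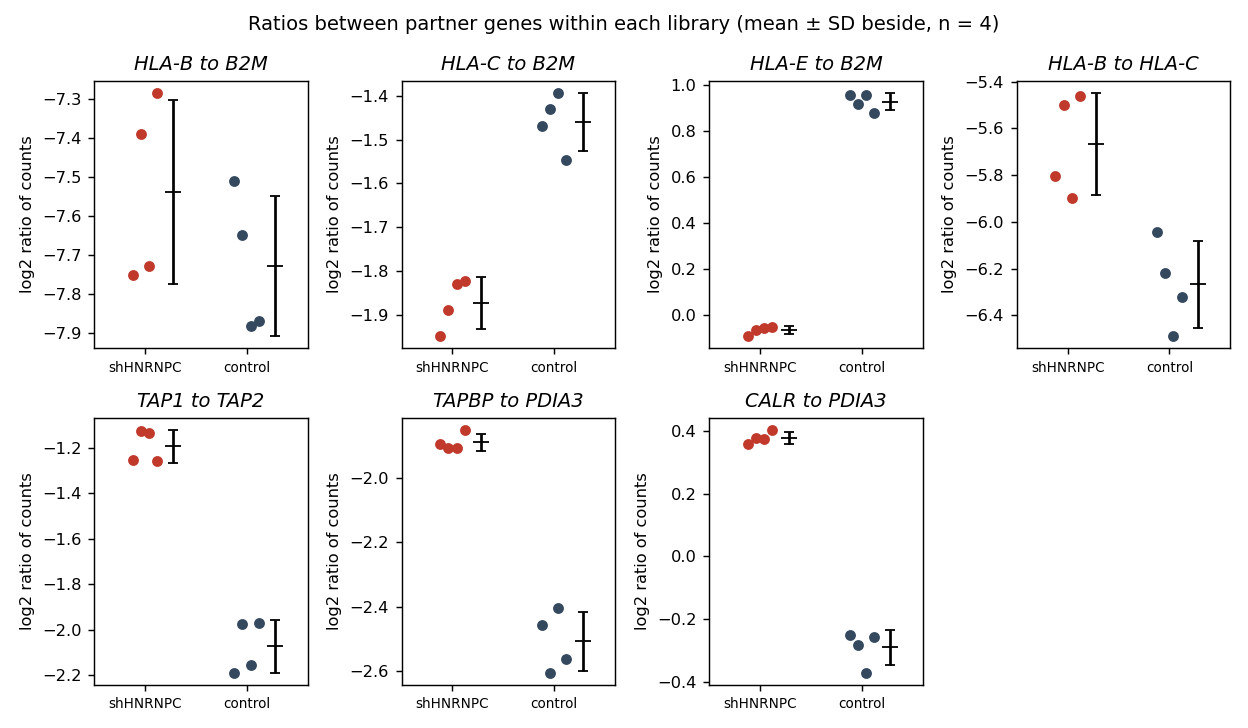
Log2 ratio of raw counts (vertical axis, scaled to each panel and not starting at 0) between partner genes within each of the 4 shHNRNPC (red) and 4 control (dark blue) libraries, with the mean ± SD beside each group. HLA-E and HLA-C lie lower relative to B2M after knockdown, TAP1, TAPBP and CALR lie higher relative to their partners, and the HLA-B to B2M groups overlap.

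The transporter subunits, which work as a 1 to 1 pair, changed unequally. TAP1 had 58.5, 59.7, 61.5 and 57.0 CPM in shHNRNPC libraries, against 26.6, 30.3, 28.0 and 30.4 CPM in control libraries. It rose by 1.04 on the log2 scale (SE 0.044, adjusted p = 2.41e-31). TAP2 had 139.5, 130.4, 135 and 136 CPM in shHNRNPC libraries, against 121, 119, 125 and 119 CPM in control libraries. The groups did not overlap for TAP2 either, but the change was 0.16 (SE 0.027, adjusted p = 2.16e-07). The TAP1 to TAP2 ratio was 0.419, 0.458, 0.455 and 0.418 in shHNRNPC libraries, against 0.219, 0.254, 0.224 and 0.255 in control libraries. That is a log2 difference of 0.88 (SE 0.068; exact two-sided permutation test, p = 0.0286, adjusted p = 0.0333). Of the exon bases of TAP2, 32.3% lie in exons of another annotated gene on the same strand, AL669918.1, so TAP2 counts depend on how reads there were assigned, which was not tested. TAP1 shares 9.49% of its exon bases with an antisense gene.

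Tapasin and its partners also rose by different amounts. TAPBP, the bridge between the transporter and the empty class I molecule, had 117, 114, 115 and 117 CPM in shHNRNPC libraries, against 54.6, 49.7, 56.5 and 50.1 CPM in control libraries. Its log2 fold change was 1.14 (SE 0.033, adjusted p = 3.37e-39). PDIA3, the oxidoreductase that forms a disulfide-linked pair with tapasin, had 434, 429, 432 and 421 CPM in shHNRNPC libraries, against 300.0, 302, 299 and 296 CPM in control libraries. It rose by 0.52 (SE 0.020, adjusted p = 7.40e-34). The groups of both genes were separate, and TAPBP rose more: the TAPBP to PDIA3 ratio was 0.267 to 0.277 in shHNRNPC libraries and 0.164 to 0.189 in control libraries (log2 difference 0.62, SE 0.048; exact two-sided permutation test, p = 0.0286, adjusted p = 0.0333). Of 100-base windows of PDIA3, 8.02% occur in the transcript of its processed pseudogene PDIA3P1, and 18.9% of its exon bases overlap genes on the other strand.

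CALR, the lectin chaperone that holds the glycosylated heavy chain, had the largest change among the abundant members. It measured 556, 557, 559.8 and 557 CPM in shHNRNPC libraries, against 252, 249, 232 and 248 CPM in control libraries. The knockdown libraries differed from each other by less than 4 CPM, and the log2 fold change was 1.18 (SE 0.021, adjusted p = 1.84e-51). CALR also rose relative to PDIA3, with count ratios of 1.28, 1.30, 1.30 and 1.32 in shHNRNPC libraries, against 0.841, 0.823, 0.774 and 0.837 in control libraries. Raw CALR counts were above those of PDIA3 in every knockdown library and below them in every control library. The log2 difference was 0.67 (SE 0.029, exact two-sided permutation test, p = 0.0286, adjusted p = 0.0333). Those counts are not divided by transcript length. Per kilobase of the longest coding transcript, CALR stood above PDIA3 in both groups. The means were 293 against 115 CPM per kilobase in shHNRNPC libraries and 129 against 80.4 in control libraries. Of the exon bases of CALR 9.95% overlap a gene on the opposite strand.

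**Figure D3:**
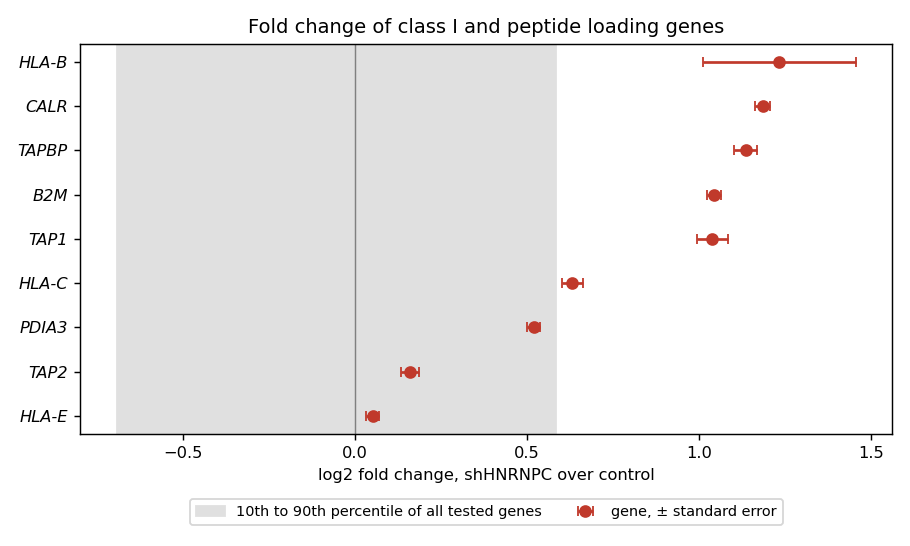
Log2 fold change of shHNRNPC over control libraries (horizontal axis, edgeR) for each of the 9 genes, with its standard error; the grey band spans the 10th to the 90th percentile of the 12001 tested genes, from -0.69 to 0.58. PDIA3, TAP2 and HLA-E lie inside the band, and the other genes lie above it.

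Levels can be set against each other once divided by transcript length, here the longest coding transcript in GENCODE release 29. In shHNRNPC libraries the order of CPM per kilobase was CALR (293 ± 0.819), B2M (244 ± 3.80), HLA-E (153 ± 2.01), PDIA3 (115 ± 1.52), HLA-C (73.2 ± 2.71), TAPBP (30.8 ± 0.329), TAP2 (23.8 ± 0.665), TAP1 (20.0 ± 0.645) and HLA-B (1.46 ± 0.217; SD, n = 4). Every neighbouring pair in that order was separate in all 4 libraries. In control libraries HLA-E came first (148 ± 1.03), ahead of CALR (129 ± 4.83) and B2M (119 ± 2.38), whose ranges overlapped. PDIA3 (80.4 ± 0.678), HLA-C (47.3 ± 1.44), TAP2 (21.3 ± 0.484), TAPBP (14.0 ± 0.894), TAP1 (9.74 ± 0.628) and HLA-B (0.620 ± 0.0734) followed. HLA-E was thus behind CALR in knockdown libraries and ahead of it in control libraries, and TAPBP was above TAP2 in knockdown libraries and below it in control libraries; both orders were the same with the union of all annotated exons as the length. The place of B2M depends on the length used. With the exon union, HLA-E stood above B2M in both groups, at 134 ± 1.76 against 68.5 ± 1.07 CPM per kilobase in shHNRNPC libraries and at 129 ± 0.9002 against 33.2 ± 0.668 in control libraries, and PDIA3 stood above B2M as well.

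Other members of the class I fold went both ways. Of 19 listed class I heavy chains and relatives 17 were in the table and 12 had enough reads to be tested, and of these 7 rose, 3 fell and 2 were not called, with a median log2 fold change of 0.29, beside -0.0057 over all tested genes; 5 fell when control replicate 1 was left out. Those shares, 58.3% higher and 25.0% lower, stand beside 38.7% and 38.6% of all tested genes. The median was 0.12 with DESeq2, with no filter and with the 1 CPM filter. MICB, a stress-induced ligand of the activating receptor NKG2D, had 3.07 ± 0.403 CPM in shHNRNPC libraries and 0.609 ± 0.223 CPM in control libraries (SD, n = 4; log2 fold change 2.33, edgeR adjusted p = 9.01e-14). Its paralog MICA rose by 0.94, to 32.6 ± 0.818 CPM in shHNRNPC libraries, against 17.0 ± 1.09 CPM in control libraries. The nonclassical HLA-F rose by 0.94 as well, with 80.7 ± 3.87 CPM in shHNRNPC libraries and 42.1 ± 2.28 CPM in control libraries, and 28.5% of its exon bases overlap antisense genes. RAET1E, another NKG2D ligand, fell by 1.30, to 0.948 ± 0.342 CPM in shHNRNPC libraries, against 2.31 ± 0.384 CPM in control libraries, with 35.8% of its exon bases overlapping other genes.

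Of 10 genes for peptide trimming and editing, 5 rose and 4 fell, or 50% and 40%, beside 38.7% and 38.6% of all tested genes, with a median of 0.09. TAPBPL, which encodes the tapasin-related editor TAPBPR, changed most: 8.38 ± 0.555 CPM in shHNRNPC libraries and 3.44 ± 0.371 CPM in control libraries (SD, n = 4; log2 fold change 1.29, edgeR adjusted p = 6.77e-16), with 11.5% of its exon bases in other genes. The other named rises were smaller: the cytosolic peptidases THOP1 (0.40) and NRDC (0.29) and the ER aminopeptidase ERAP2 (0.31). ERAP2 stood at 21.4 ± 1.25 CPM in shHNRNPC libraries and 17.3 ± 0.918 CPM in control libraries. ERAP1 fell by 0.25, to 21.4 ± 1.04 CPM in shHNRNPC libraries, against 25.5 ± 0.671 CPM in control libraries. TPP2 fell by 0.24.

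Of 21 ER partners of class I assembly, 16 rose and 4 fell, or 76.2% and 19.0%, beside 38.7% and 38.6% of all tested genes, with a median of 0.31. GANAB, the catalytic subunit of glucosidase II, which trims glycans into the form that calreticulin binds, had 708 ± 8.37 CPM in shHNRNPC libraries and 284 ± 5.38 CPM in control libraries (SD, n = 4; log2 fold change 1.32, edgeR adjusted p = 1.50e-56). SAR1A, a GTPase of ER export, and HSP90B1, the ER chaperone GRP94, rose by 0.82 and 0.78. ERP29, a thioredoxin-fold protein of the ER, fell by 0.76, to 89.8 ± 3.49 CPM in shHNRNPC libraries, against 153 ± 2.06 CPM in control libraries, and 17.5% of its exon bases overlap another gene. CANX fell by 0.13, to 872 ± 9.54 CPM in shHNRNPC libraries, against 956 ± 9.01 CPM in control libraries. PRKCSH and SEC63 fell by 0.13 and 0.07.

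Of 21 transcription regulators of class I genes and their interferon input, 13 rose and 6 fell, or 61.9% and 28.6%, beside 38.7% and 38.6% of all tested genes, with a median of 0.12. NLRC5, the transactivator of class I promoters, had 52.2, 53.2, 47.2 and 49.7 CPM in shHNRNPC libraries, against 23.2, 25.4, 23.6 and 22.7 CPM in control libraries. The groups were far apart, and NLRC5 rose by 1.09 on the log2 scale (SE 0.047, edgeR adjusted p = 9.73e-31). IRF9, the DNA-binding subunit of the ISGF3 complex, rose by 0.91, to 24.7 ± 1.97 CPM in shHNRNPC libraries, against 13.2 ± 0.715 CPM in control libraries (SD, n = 4), and 48.4% of its exon bases lie in a gene on the same strand. IFNGR2, a chain of the interferon gamma receptor, fell by 1.32, to 24.6 ± 1.11 CPM in shHNRNPC libraries, against 61.2 ± 1.66 CPM in control libraries, with 12.8% of its exon bases overlapping an antisense gene. NFYA, a subunit of the factor that binds CCAAT boxes, fell by 0.66.

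Of 16 tested genes of class I quality control and turnover 5 were higher, 7 lower and 4 not called, with a median of -0.07. These shares, 31.2% higher and 43.8% lower, were near those of all tested genes, 38.7% and 38.6%. The listed membrane ubiquitin ligases MARCHF4 and MARCHF1 fell by 0.68 and 1.27. MARCHF1 was scarce, at 1.25 ± 0.359 CPM in shHNRNPC libraries and 3.03 ± 0.119 CPM in control libraries (SD, n = 4). Whether either ligase acts on class I in this line was not tested. The ATPase VCP, which extracts proteins from the ER membrane, and the ubiquitin ligase WWP2 rose by 0.56 and 0.64.

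Most listed genes of the MHC class II pathway could not be tested: of 16 listed genes 14 were in the table and 3 had enough reads. IFI30, a thiol reductase of endosomes that interferon gamma induces, rose by 0.94, with 74.9 ± 2.35 CPM in shHNRNPC libraries and 39.0 ± 1.37 CPM in control libraries (SD, n = 4; edgeR adjusted p = 1.19e-32); 40.2% of its exon bases overlap another gene. The peptide exchange factor subunit HLA-DMA stood at 0.603 ± 0.143 CPM in shHNRNPC libraries and 0.486 ± 0.226 CPM in control libraries and was not called (edgeR adjusted p = 0.404). HLA-DOB stood at 3.76 ± 0.427 CPM in shHNRNPC libraries and 3.78 ± 0.508 CPM in control libraries. It was not called either (edgeR adjusted p = 0.959).

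Of 13 listed surface ligands that lymphocytes read together with class I 11 were tested, and 6 were higher and 4 lower, or 54.5% and 36.4%, beside 38.7% and 38.6% of all tested genes. Their median was 0.07. Among those called higher, VTCN1, LGALS9 and TNFRSF14 had means below 1 CPM in both groups. Their shHNRNPC means were 0.595, 0.871 and 0.627 CPM. The 1 CPM filter drops these genes, so fewer ligands were tested with it, 3 were higher and the median was -0.11. With upper quartile factors the median was 0.046. CD274, which encodes the inhibitory ligand PD-L1, had 70.6, 66.0, 67.4 and 69.9 CPM in shHNRNPC libraries, against 200.1, 207, 205 and 199 CPM in control libraries. It fell by 1.57 on the log2 scale (SE 0.027, edgeR adjusted p = 1.28e-52), and its neighbour PDCD1LG2, which encodes PD-L2, fell by 1.53. ICAM1, the adhesion ligand of the integrin LFA-1, rose by 1.12, to 142 ± 4.65 CPM in shHNRNPC libraries, against 65.5 ± 2.66 CPM in control libraries (SD, n = 4), with 23.6% of its exon bases overlapping antisense genes. NECTIN2, a ligand of the receptors DNAM-1 and TIGIT, rose by 1.04. In the same list PVR fell by 0.46, to 171 ± 1.67 CPM in shHNRNPC libraries, against 236 ± 2.44 CPM in control libraries.

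**Figure D4:**
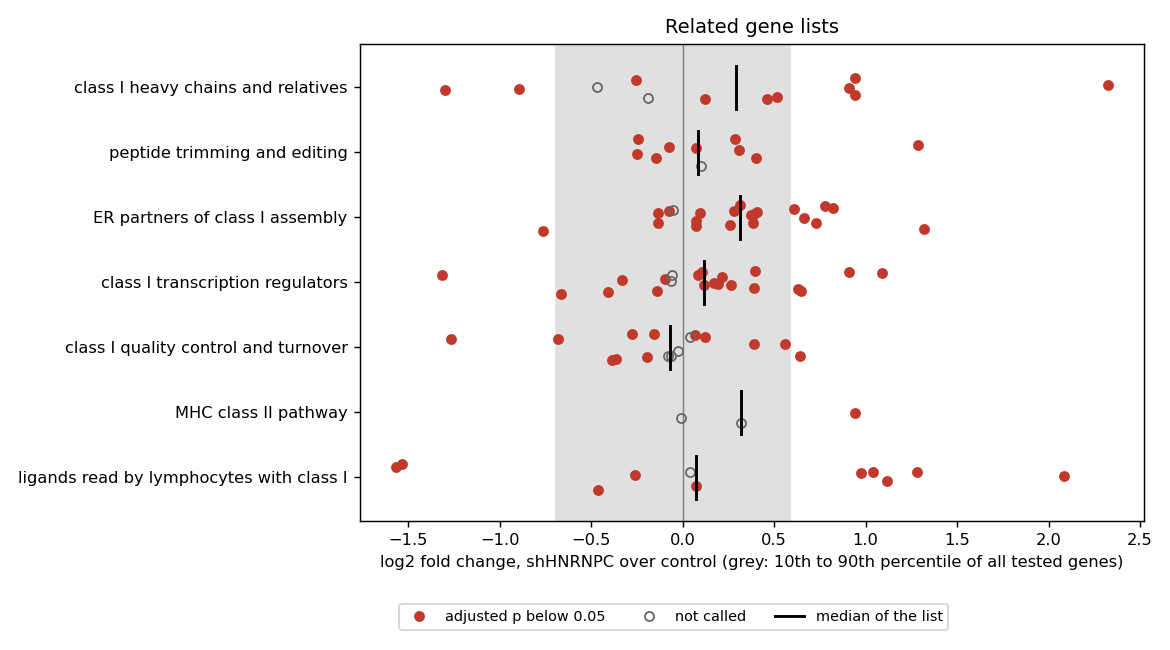
Log2 fold change of shHNRNPC over control libraries (horizontal axis) for each tested gene of the 7 related lists, filled where the adjusted p was below 0.05 and open where it was not, with the median of each list as a black bar; vertical scatter within a list has no meaning. The ER partners have a median of 0.31 and the heavy chain relatives one of 0.29, which was 0.12 with DESeq2 or another filter, and the other lists with more than 3 genes lie between -0.07 and 0.12.

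The genes whose profile over the 8 libraries was most like that of a member were found by the root mean square difference of log2 CPM, each taken relative to its control mean. For TAP1 they were RIT1 (0.041), PIMREG (0.045) and B2M (0.050), the last being itself a member. For CALR they were RPUSD4 (0.022), PRC1 (0.037) and PRDX1 (0.041). For HLA-B, with its larger error, they were PSRC1 (0.120), SEMA6B (0.131) and NFIA (0.141). All libraries share the split between knockdown and control, so the measure mostly ranks genes by the size of that difference.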

How the data were processed

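The authors deposited raw read counts per gene, not normalised, in 1 table with a column for each of the 8 libraries. Per the series' design text, fastp was used to drop reads of low quality, and per the submitters' processing notes the build was hg38. The sources used here name no aligner, counting tool, annotation or strand setting, so antisense and overlapping genes cannot be separated. Libraries were grouped by the labels' titles. Replicate libraries differed beyond sampling noise (chi-square per degree of freedom of 2.66 to 3.70 within groups and 109 to 124 between them).

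Genes were kept with filterByExpr (minimum count 10, minimum total 15), scaled with TMM factors and tested with edgeR 4.0.16's quasi-likelihood test in R 4.3.3, across all genes. Each standard error was derived as the size of the log2 fold change over the root of the F statistic. A prior count of 2 entered log2 CPM values. The alternatives used DESeq2 1.42.0 and limma 3.58.1. Ratios between members were compared with exact permutation tests (scipy 1.17.1). The fit was tested on simulated data.

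The 9 members and the related lists were chosen with earlier results of these data known. Named genes are the members, HNRNPC, up to 4 called genes of each list with the largest change and at least 1 CPM (or, if under 2 passed, the 2 of lowest p), and the 3 genes nearest in profile to HLA-B, TAP1 and CALR. PVR, ERAP1, TPP2, HLA-DOB, CANX, PRKCSH and SEC63 are named as well, outside that rule. Positions come from RefSeq GRCh38.p14 and exons from GENCODE release 29.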

Additional observations from a re-analysis of the deposited data

How the results depend on the processing

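Of the 9 members 8 kept their direction and their call under all 17 alternatives: DESeq2, limma voom, scaling by library size alone or by upper quartile factors, no filter or a filter at 1 CPM, the replicate number as a block, each library left out in turn, and, chosen after seeing the data, shHNRNPC replicates 2 and 3 or 1 and 4 alone, since these pairs lie apart on the second principal component. HLA-E lost its call under 3 of them, as given above, over a range of 0.024 to 0.068. The median of all genes was -0.027 with library size alone and -0.032 with upper quartile factors. HNRNPC stayed between -4.16 and -4.06.

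Leaving out 1 library gave log2 differences of -1.01 to -0.98 for HLA-E to B2M, -0.44 to -0.39 for HLA-C to B2M, 0.10 to 0.26 for HLA-B to B2M, 0.53 to 0.68 for HLA-B to HLA-C, 0.84 to 0.91 for TAP1 to TAP2, 0.59 to 0.65 for TAPBP to PDIA3 and 0.64 to 0.68 for CALR to PDIA3. With 3 against 4 libraries the exact permutation p cannot go below 0.0571, so none can pass.

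Same-numbered libraries did not deviate together (correlations of -0.055, -0.032, 0.012 and 0.017), so no pairing by number was seen. Such values cannot show whether same-numbered libraries were prepared together. With the replicate block 4605 genes were called higher and 4614 lower, against 4640 and 4635 without it. The log2 ratio differences were then -0.99 for HLA-E to B2M, -0.41 for HLA-C to B2M and 0.60 for HLA-B to HLA-C. They were 0.88 for TAP1 to TAP2, 0.62 for TAPBP to PDIA3 and 0.67 for CALR to PDIA3. Pairing all libraries by number leaves a difference of group means unchanged by arithmetic, so these values do not test the ratios. The p of 4 pairs cannot go below 0.125.

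Of the heavy chain relatives, 5 fell with library size alone, with upper quartile factors and without control replicate 1, against 3 in the reported fit and 3 or 4 under the other alternatives (3 to 5 over the libraries left out). Of the class II genes, 2 rose and 1 fell with DESeq2 and with no filter, both of which test more genes of low count. The median of the heavy chain relatives was 0.12 with DESeq2, no filter and the 1 CPM filter. With the 1 CPM filter, which drops VTCN1, LGALS9 and TNFRSF14, 3 lymphocyte ligands rose and the median of the ligands still tested was -0.11. HLA-DMA was at -0.012 with shHNRNPC replicates 1 and 4 and was called under no setting that tested it. With exon union lengths, chosen after seeing the data, the log2 ratio of HLA-E to B2M per kilobase in shHNRNPC libraries was 0.97, against -0.67 with the longest coding transcript. Depth limits HLA-B most, at 27 to 86 reads.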
